A study of Mus musculus with 6 samples.

Results

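The genes described here build the nuclear pore or carry cargo through it. They were taken by gene symbol from the deposited table of splicing scores: the numbered Nup, Nupl, Ranbp, Xpo, Ipo, Kpna, Tnpo, Nxf and Nxt genes, the Pom121 genes, and Kpnb1, Tpr, Rae1, Aaas and Ndc1. This rule found 60 of the 15705 genes in the table. Members were thus chosen by symbol and by no measured value, but the group was proposed with earlier results of these scores known. Its counts are therefore descriptions, and no test of the group as a whole is given. By role, 27 were pore genes, 17 import genes, 10 export genes and 6 other Ran-binding protein genes.

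The neurons were cortical, taken from C57BL/6 embryos at embryonic day 18, kept in Neurobasal A with B27 and, from day 7 in vitro, exposed to lentivirus for 3 days. The control group, FCK1.3GW, received EGFP behind a short CaMKII promoter. The N40K group received the same vector with N40K, an N-terminal fragment of the U1 snRNP protein that Snrnp70 encodes, in place of EGFP. Both vectors also carried a WPRE and long terminal repeats. Each group had 3 libraries of poly(A) RNA, sequenced as stranded 100 nt paired reads. Whether replicates were separate cultures is not in the labels, and each p-value here rests on the spread among these libraries alone, some or all of which may be technical. The promoter is one of excitatory neurons, and the share of cells that took up virus was not analysed here.

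The nuclear pore complex is a ring of nucleoporins in the nuclear envelope. Its scaffold holds the channel open, and disordered repeats of phenylalanine and glycine in other nucleoporins fill it. Importins and exportins bind cargo and pass through these repeats, and the small GTPase Ran sets the direction, while bulk mRNA leaves with the Nxf1 and Nxt1 pair. Neurons depend on this traffic over long distances, and pore defects are known from several neurodegenerative diseases.

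The score, named Sd in the table, is read here as splicing deficiency, a linear ratio in which a higher value stands for more unspliced RNA relative to spliced RNA of the same gene. It is not an expression level: a score can differ because unspliced RNA rose or because spliced RNA fell. Across all genes the library median was 0.0127 to 0.0136 in control neurons and 0.0146 to 0.0163 in N40K neurons, and libraries of the same group correlated across genes, which are not independent replicates, with a Spearman rho of 0.983 to 0.987. Read depth is unknown. Of 8 neuron markers, general and excitatory, 7 had a score, as did all 3 markers of inhibitory neurons. All 4 astrocyte markers, 2 of 4 microglia markers and 4 of 5 markers of the oligodendrocyte lineage also had one. Levels of RNA are not in the table, so the cell type could not be checked against these markers.

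U1 snRNP finds the start of an intron by pairing with the last 3 bases of the exon and the first bases of the intron. The exon side of these sites is shown for the member whose score differed most, the exportin gene Xpo4, and for the member whose mean scores were equal, the transportin gene Tnpo2. Each sequence is the spliced junction in the GENCODE M21 transcript, 12 bases on each side, with the last 3 exon bases in capitals. The first, the middle and the last of the 22 junctions of Xpo4 and of the 24 junctions of Tnpo2 are given.
Xpo4 junction 1: aaagttctgATGgcaccaccttcc
Xpo4 junction 11: tcttctgacAAGtttattagaaga
Xpo4 junction 22: tgtttgcacCAGgctgaatattct
Tnpo2 junction 1: cgcgtggatCGGttcgccttgcgc
Tnpo2 junction 12: ccatcgctgAGGgctgcatgcagg
Tnpo2 junction 24: ggagaccacCAGgtttttgtctgc
The capitals match CAG or AAG, the usual end of an exon, in 2 of the 3 Xpo4 junctions and 1 of the 3 Tnpo2 junctions shown. Over every junction, 40.9% of Xpo4 exon ends and 37.5% of Tnpo2 exon ends read CAG or AAG. Across the 1236 exon ends of all members, 25.2% read CAG and 16.7% AAG, beside 23.8% and 19.0% of the 161029 exon ends of all genes with a known transcript. Members whose score rose and members that were not called had nearly the same share of ends in AG, 55.5% and 55.3%. These letters are a description of the exon side only.

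Scores of the nuclear pore and transport genes were mostly higher in N40K neurons, and 25 of the 60 rose while 0 fell (limma, Benjamini-Hochberg adjusted p under 0.05 over all 15705 genes). Of all genes, 21.5% rose and 4.11% fell. At an unadjusted p under 0.05, 35 members were higher and 0 lower, beside 31.2% and 7.32% of all genes. The ratio of mean scores, N40K to control, had a median of 1.31 among the members and 1.11 among all genes, and the median log2 change was 0.15 and 0.06. The groups did not overlap and N40K was the higher in 39 of the 60, beside 33.6% of all genes, and the lower in 0, beside 8.67%. The ratio was at least 1.5 in 20 members, a size reached by 20.6% of all genes. The members' scores were low: the mean control score ran from 0.000967 in Ipo11 to 0.101 in Ipo4, with a median of 0.00767 beside 0.0133 for all genes.

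How many members rose or fell depended on the scaling of the libraries. Centring each library on its median, which removes a shift of 0.13 (log2) between the groups, left 11 rises and 3 falls, beside 9.75% and 18.4% of all genes. Quantile normalization gave 15 and 2, beside 12.9% and 12% of all genes. Centring by median deviation, in which a library is shifted by the median of its genes' differences from their own means, gave 16 and 1, beside 14.2% and 9.67%. The log2 change had another sign than in the deposited scores in 21, 19 and 14 members under these scalings in turn, 1 of which was called. The median log2 change of all genes was itself -0.07, -0.02 and -0.01 under these scalings. The members that fell under one or more of these scalings were Ranbp3, Kpna1 and Kpna6. The count of rises also moved with single libraries. It was 16, 10 and 9 without control replicates 1, 2 and 3, beside 12.9%, 10.3% and 10.4% of all genes higher and 1.93%, 2.56% and 2.02% lower. It was 24, 13 and 15 without N40K replicates 1, 2 and 3, beside 23.7%, 13.3% and 15.1% higher and 3.09%, 2.15% and 3.02% lower. Among these 6 fits, a member fell only without N40K replicate 2, the export gene Nxt1. Pseudocounts of 0.001 and 0.1 in place of 0.01 gave 25 and 24 members, beside 22.3% and 20.5% of genes higher and 4.16% and 3.9% lower. Leaving out the pseudocount, added after seeing the data, gave 23 of 59 (20.5% and 4.19% of genes), and with centring by median deviation 17 higher and 1 lower (15.3% and 8.4%). Without the lowest 25% of genes 10 of 43 members rose (16.7% and 4.1%), with the replicate number as a block 11 (11.3% and 2.09%), with eBayes without its trend 19 (16.8% and 3.43%), and among genes that overlap no other 8 of 26 (15.8% and 3.6%). Among the N40K libraries, replicate 3 had the highest score in 37 of the 60 members (61.7%) and in 48.4% of all genes. Replicate 1 had the lowest in 36 members (60%) and in 47.2% of all genes. What part this difference between libraries has in the counts was not tested.

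**Figure D1:**
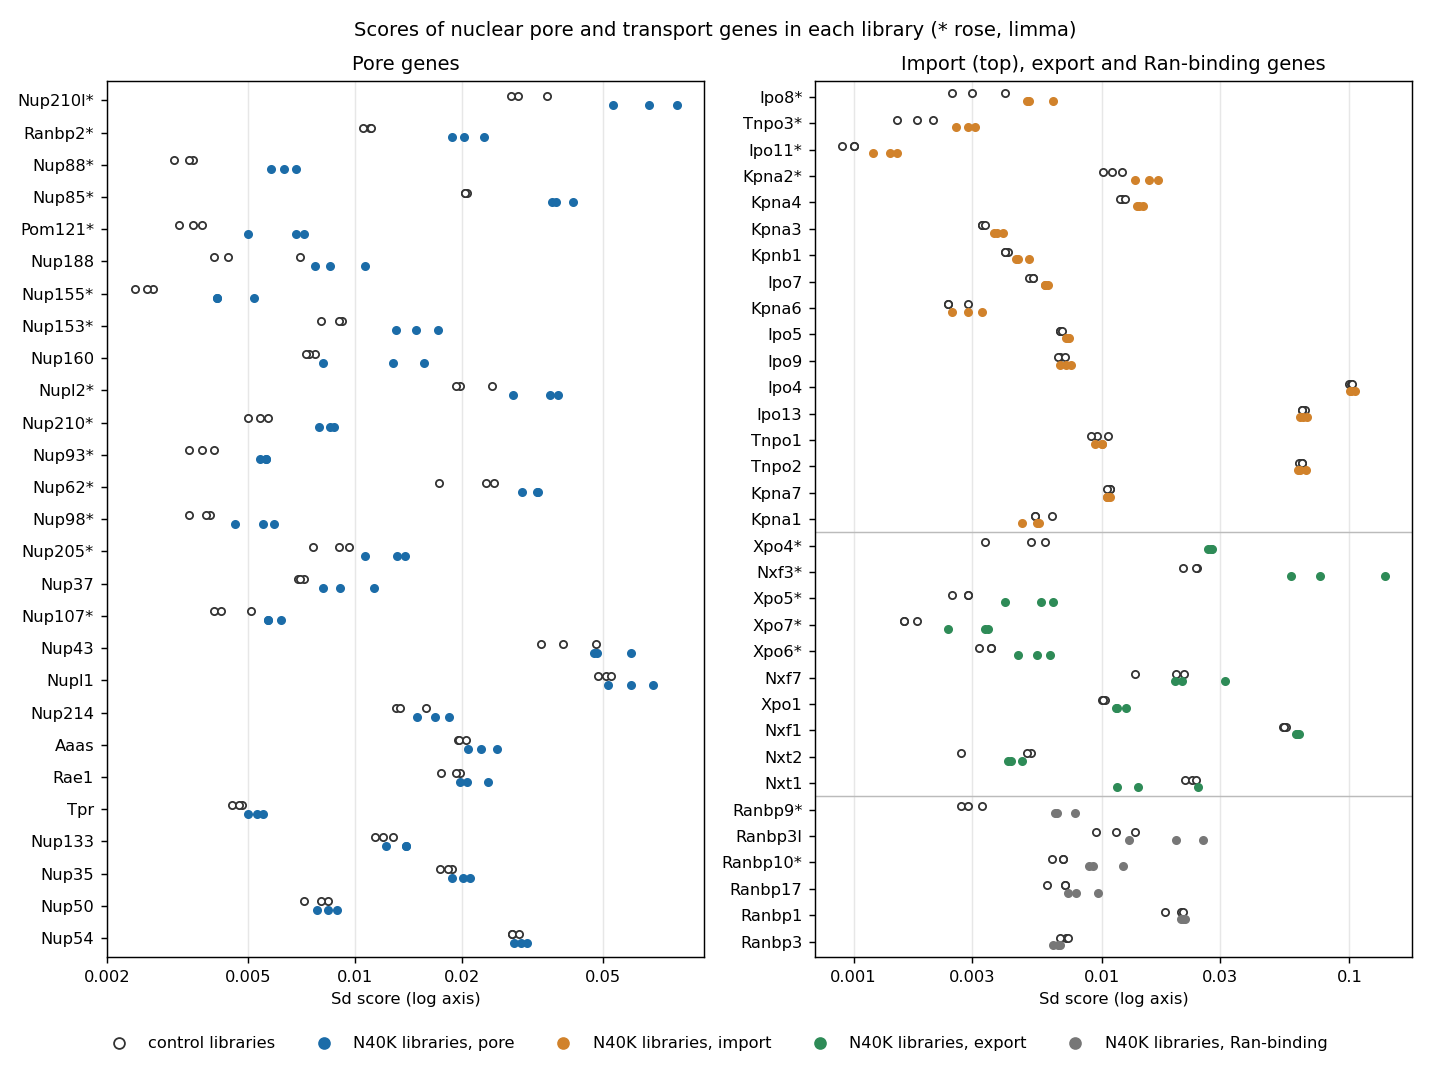
Sd score (log axis) of each of the 60 genes in the 3 control libraries (open) and the 3 N40K libraries (filled), sorted by ratio within each role; an asterisk marks the 25 genes that rose. The groups are apart for Xpo4, Ranbp2 and Nup85, while Ipo4, Ipo13 and Tnpo2 lie at high scores with both groups on top of each other.

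Rises were counted by role. Among pore genes 14 of 27 rose and 0 fell, with a median ratio of 1.44, among export genes 5 of 10 rose and 0 fell, with a median ratio of 1.44, and among import genes 4 of 17 rose and 0 fell, with a median ratio of 1.13. The import share of 23.5% is near the 21.5% of all genes, and the pore and export shares of 51.9% and 50% are above it. At an unadjusted p under 0.05, 18 pore, 6 export and 8 import genes were higher and 0 of each lower, beside 31.2% and 7.32% of all genes. Single libraries moved these counts by more than 1.5 times. Without control replicate 1, 2 or 3 in turn, 11, 8 and 7 pore, 2, 1 and 1 export and 2, 0 and 0 import genes rose, so that without control replicate 2 or 3 the export share was near that of all genes (10.3% and 10.4%). Without N40K replicate 2 or 3 they were 9 and 9 pore, 2 and 4 export and 1 and 0 import genes, beside 13.3% and 15.1% of all genes. Under each of the 3 scalings (library median, quantile, median deviation) import genes again had the smallest share: 7, 9 and 10 pore genes, 3, 5 and 5 export genes and 0, 0 and 0 import genes rose. Of all genes, 9.75%, 12.9% and 14.2% rose under these scalings. At an unadjusted p under 0.05 the import genes then counted 0, 2 and 3 higher and 8, 3 and 1 lower. The share of all genes at this threshold was not counted under the scalings. In the last of these scalings the median log2 change was 0.14 for pore, 0.12 for export and -0.03 for import genes, beside -0.01 for all genes. Genes are not replicates, so the difference between roles was not tested.

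**Figure D2:**
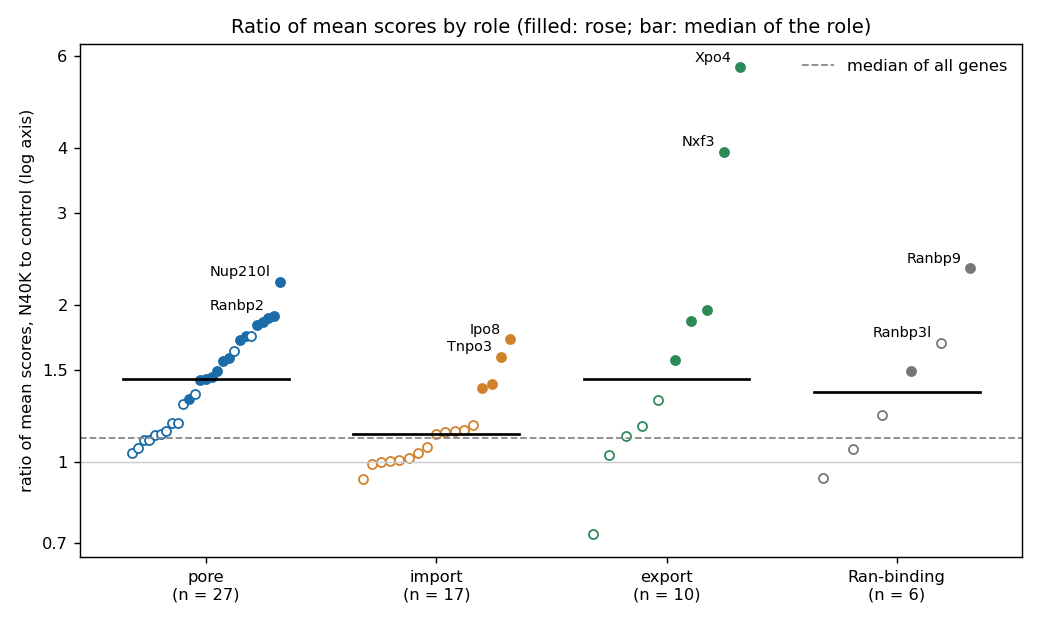
Ratio of mean scores, N40K to control (log axis), of each gene by role, with filled points for genes that rose, a bar for the median of the role and a dashed line for the median of all genes (1.11). The bars of pore and export genes stand at 1.44 and that of import genes at 1.13.

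The transmembrane ring anchors the pore scaffold in the nuclear envelope. The 3 of its genes that the symbols reached rose, beside 21.5% of all genes. A further one, listed under the older symbol Tmem48 and now called Ndc1, did not pass. Nup210l, a relative of the membrane nucleoporin Nup210 known mainly from the testis, had scores of 0.0348, 0.0287 and 0.0274 in control replicates 1 to 3 and 0.0533, 0.0806 and 0.0673 in N40K replicates 1 to 3. The groups were apart by more than the spread of either, with a ratio of 2.21 and a log2 change of 0.92 ± 0.15 (SE; limma adjusted p = 0.0108). Nup210 itself had 0.0057, 0.0054 and 0.005 in control and 0.0079, 0.0087 and 0.0085 in N40K neurons, 1.56-fold (adjusted p = 0.00586). Pom121, the membrane nucleoporin that anchors the pore, rose 1.83-fold, from 0.00347 ± 0.000252 to 0.00633 ± 0.00117 (mean ± SD, n = 3), but the limma call ended without any one of the control libraries (highest adjusted p = 0.0671).

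The Y complex, which forms the outer rings of the pore, had 2 rises among 6 genes, beside 21.5% of all genes. Nup85 was at 0.0204, 0.0206 and 0.0204 in control and 0.0369, 0.0359 and 0.041 in N40K neurons. The control libraries differed by only the third digit and every N40K library was far above them, with a ratio of 1.85 and a log2 change of 0.65 ± 0.07 (limma adjusted p = 0.00337). Nup107 rose 1.32-fold (adjusted p = 0.041), a call that ended without any library other than control replicate 1 (highest 0.128). Nup160, another scaffold subunit, had control scores of 0.0077, 0.0074 and 0.0073 and N40K scores of 0.0081, 0.0128 and 0.0156. Its first N40K library was close to the controls and the other two were not, and it did not pass (adjusted p = 0.113) except without that library (0.00973). Nup37, Nup43 and Nup133 had ratios of 1.35, 1.30 and 1.10 and did not pass, but Nup37 passed without N40K replicate 1 (0.039).

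In the inner ring, which lines the pore next to the channel, 3 of 5 genes rose, beside 21.5% of all genes. N40K was the higher without overlap in all 5, beside 33.6% of all genes. Nup93, which links the ring to the channel proteins, had 0.0037, 0.0034 and 0.004 in control and 0.0056, 0.0056 and 0.0054 in N40K neurons. The N40K libraries agreed closely and all lay above the controls, with a ratio of 1.496 and a log2 change of 0.18 ± 0.02 (limma adjusted p = 0.00602). Nup155 rose from 0.00257 ± 0.000153 to 0.00447 ± 0.000635, 1.74-fold (adjusted p = 0.0119), and Nup205, a large scaffold protein gene, rose 1.44-fold (0.0458). The call of Nup205 ended without any library other than N40K replicate 1 (highest 0.133), and those of Nup93 and Nup155 held without each library. After centring on the library median, though, the calls of Nup93 and Nup155 ended (log2 changes of 0.05 and 0.07, adjusted p = 0.334 and 0.136), and that of Nup93 also ended after quantile normalization (0.0606). Just outside the threshold was Nup188, a relative of Nup205, with a ratio of 1.75 and an adjusted p of 0.0528. Its control scores were 0.007, 0.0044 and 0.004, so replicate 1 stood apart, and without that library it passed (0.0337). Nup35 had a ratio of 1.10 (adjusted p = 0.305).

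The cytoplasmic face of the pore, where exported complexes are released, held 2 of the clearest rises. Ranbp2, the giant filament protein also called Nup358, had 0.011, 0.0111 and 0.0105 in control and 0.0188, 0.0203 and 0.0231 in N40K neurons. All N40K libraries were well above all controls, with a ratio of 1.91 and a log2 change of 0.56 ± 0.07 (limma adjusted p = 0.00484). Nup88, which holds Nup214 in the pore, had 0.0035, 0.0034 and 0.0031 against 0.0063, 0.0058 and 0.0068, a ratio of 1.89 (adjusted p = 0.0036). Nupl2, a docking protein of the mRNA remodelling machinery, rose 1.59-fold (0.0294). This call was lost when control replicate 2 or 3 or N40K replicate 2 or 3 was left out (highest 0.0961). Nup214, Aaas, the gene mutated in triple A syndrome, and the mRNA export factor gene Rae1 had ratios of 1.19, 1.15 and 1.13 and did not pass (adjusted p = 0.214, 0.212 and 0.295). The annotation names 12 pseudogenes of Ranbp2, so its score is uncertain if reads were shared with them, and Nup88 overlaps Rabep1 on the other strand.

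The channel and basket genes, some of which encode phenylalanine-glycine repeats, were uneven. Nup153, of the nuclear basket, was at 0.0092, 0.009 and 0.008 in control and 0.013, 0.0148 and 0.0171 in N40K neurons, a ratio of 1.71 (limma adjusted p = 0.0129). The 2 groups were apart, but the call ended without control replicate 3 (0.053). Nup98, whose transcript also encodes the Y complex protein Nup96, rose 1.44-fold from 0.0037 ± 0.000265 to 0.00533 ± 0.000666 (adjusted p = 0.0277), and Nup62, a core channel protein gene, rose 1.46-fold from 0.0217 ± 0.00395 to 0.0316 ± 0.00177 (0.0432). The call of Nup98 ended without any library other than N40K replicate 1 (highest 0.0946), and that of Nup62 ended without any one library (0.119). Nup62 had 1 intron in the transcript used and overlaps Il4i1 on the same strand. The other basket genes did not pass. The log2 change of Nup50 was 0.04 (95% interval -0.07 to 0.15). That of Tpr, the basket filament gene, was 0.06 (95% interval 0.00 to 0.12, adjusted p = 0.13) with groups that did not overlap, turning to -0.07, -0.04 and -0.01 under the 3 scalings. The medians of all genes were then -0.07, -0.02 and -0.01. Nup54 had a ratio of 1.04, and Nupl1, the pore gene with the highest control score at 0.0506 ± 0.00217, had a ratio of 1.19 and did not pass (0.226).

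Exportins carry proteins and small RNAs out of the nucleus, and 4 of the 5 numbered Xpo genes rose, beside 21.5% of all genes. N40K was the higher without overlap in all 5, beside 33.6% of all genes. The exportin genes Cse1l and Xpot, which the symbols did not reach, are given with the pathway lists. Ranbp17, a relative of Xpo7, is counted with the Ran-binding genes. Xpo4, an exportin of the translation factor eIF5A, had the largest ratio of all members: 0.0052, 0.0034 and 0.0059 in control and 0.0279, 0.0277 and 0.027 in N40K neurons. The lowest N40K score was several times the highest control score, and the ratio was 5.70, with a log2 change of 1.34 ± 0.07 (limma adjusted p = 0.0013). With no pseudocount, an alternative added later with the scores in view, the log2 change was 2.55. Xpo4 overlaps a predicted gene, Gm49361, on the same strand.

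The other numbered Xpo genes changed less. Xpo5, which exports microRNA precursors, had 0.0029, 0.0025 and 0.0029 in control and 0.0041, 0.0057 and 0.0064 in N40K neurons (ratio 1.95, limma adjusted p = 0.0221). Xpo7 rose 1.86-fold from 0.00167 ± 0.000115 to 0.0031 ± 0.000608 (0.0212), and Xpo6, the exportin of actin, rose 1.57-fold from 0.00347 ± 0.000231 to 0.00543 ± 0.000802 (0.0219). In all 3, N40K replicate 1 was the lowest of its group. The calls of Xpo5 and Xpo6 ended without any control library or N40K replicate 2 (highest 0.0765 for each), and that of Xpo7 ended without any library other than N40K replicate 1 (0.0741). Xpo1, the main exportin of proteins with leucine-rich signals, had 0.01, 0.0103 and 0.0101 against 0.0116, 0.0126 and 0.0114. Its groups did not overlap, but the ratio of 1.17 did not pass (adjusted p = 0.0941), and the log2 change of 0.12 turned to -0.01 after centring on the library median and after quantile normalization. The direction for Xpo1 thus depended on the scaling. After these scalings the medians of all genes were -0.07 and -0.02.

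Genes of the mRNA export receptor were mixed. Nxf3, an X-linked relative of Nxf1, had 0.0243, 0.0213 and 0.024 in control and 0.0759, 0.0581 and 0.1395 in N40K neurons, a ratio of 3.93 and a log2 change of 1.53 ± 0.29 (limma adjusted p = 0.0155). The N40K libraries were all higher but spread widely, with replicate 3 far above the others, and the call ended without control replicate 2 or 3 (highest 0.0576). Nxf1 itself was steady within groups, at 0.0554, 0.0541 and 0.0547 and at 0.0613, 0.0624 and 0.061, and its ratio of 1.12 did not pass (adjusted p = 0.134) except with eBayes without its trend (0.0196). Nxf1 is the export gene with the highest control score. Its partner Nxt1 was the member with the lowest ratio, 0.729, with control scores of 0.0217, 0.0232 and 0.024 and N40K scores of 0.014, 0.0246 and 0.0116. N40K replicate 2 was above all controls and the other two N40K libraries were below them, so the groups overlapped (adjusted p = 0.235), and without replicate 2 Nxt1 passed as lower (0.0226). Nxf7 and Nxt2 had ratios of 1.32 and 1.03 and did not pass.

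Of the 17 import genes 13 were not called, beside 11688 of the 15705 genes in the table. Importin alpha proteins bind the classical import signal and importin beta, encoded by Kpnb1, carries them through the pore. Of the 6 importin alpha genes only 1 rose, beside 21.5% of all genes. This was Kpna2, from 0.0101, 0.011 and 0.0121 to 0.0155, 0.0136 and 0.0169, a ratio of 1.39 (limma adjusted p = 0.0399). The groups were apart, but the call ended without any library other than N40K replicate 2 (highest 0.12), and a pseudogene of Kpna2 is annotated. Kpna3, Kpna4, Kpna6, Kpna7 and Kpna1 had ratios from 1.18 for Kpna4 to 0.93 for Kpna1 and did not pass, but Kpna4 passed with eBayes without its trend (0.0296). Kpna7, known mainly from oocytes and early embryos, was at 0.0108, 0.0108 and 0.0105 and at 0.0108, 0.0105 and 0.0105, with a log2 change of -0.01 (95% interval -0.10 to 0.08). Kpnb1 had 0.0042, 0.0041 and 0.0041 against 0.0046, 0.0045 and 0.0051, a ratio of 1.15 (adjusted p = 0.116), and its log2 change of 0.06 turned to -0.07, -0.03 and -0.01 under the 3 scalings. These values lie near the medians of all genes, -0.07, -0.02 and -0.01.

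Among the importins that bind cargo directly, 2 of 7 rose, beside 21.5% of all genes. Ipo8 had 0.0041, 0.003 and 0.0025 in control and 0.005, 0.0064 and 0.0051 in N40K neurons, a ratio of 1.72 (limma adjusted p = 0.0331). Ipo11, with the lowest scores of all members, had 0.001, 0.001 and 0.0009 against 0.0012, 0.0014 and 0.0015, a ratio of 1.41 (0.035) that rests on the last decimal of the table. The Ipo11 groups were apart, yet its log2 change of 0.05 turned to -0.08 after centring on the library median and to -0.01 after centring on the median deviation. For all genes the medians were then -0.07 and -0.01. Ipo7, Ipo5 and Ipo9 had ratios of 1.14, 1.07 and 1.04. The import genes with the highest scores had ratios near 1: Ipo4 was at 0.0993, 0.1012 and 0.1025 and at 0.1007, 0.1017 and 0.1056, and Ipo13, which carries cargo in both directions, had a ratio of 1.01. The log2 change of Ipo4 was 0.02 (95% interval -0.14 to 0.18), and it turned to -0.11, -0.10 and -0.04 under the 3 scalings.

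Of the 3 transportins only Tnpo3 rose, beside 21.5% of all genes. Tnpo3, the importer of SR splicing proteins, rose from 0.0021, 0.0015 and 0.0018 to 0.0026, 0.0031 and 0.0029, a ratio of 1.59 (limma adjusted p = 0.018). Tnpo1, which imports hnRNP proteins, had 0.0096, 0.0106 and 0.0091 against 0.0094, 0.01 and 0.01, with groups that overlapped fully. Tnpo2 had 0.0628, 0.0644 and 0.0646 against 0.0669, 0.0619 and 0.063, and its 2 means were equal (log2 change -0.00, 95% interval -0.16 to 0.16). The log2 change of Tnpo3 of 0.12 turned to -0.01 after centring on the library median, beside a median of -0.07 for all genes. The calls of Tnpo3 and Ipo8 ended without control replicate 2 or 3 or N40K replicate 2 or 3 (highest 0.0639 and 0.101), and that of Ipo11 without any library other than N40K replicate 1 (0.116).

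Ran-binding proteins beyond the pore and the receptors made up the smallest role. Among these 6 Ran-binding protein genes, 2 rose and 0 fell, beside 21.5% and 4.11% of all genes. At an unadjusted p under 0.05, 3 were higher and 0 lower, beside 31.2% and 7.32%. Ranbp9, a scaffold of a ubiquitin ligase complex, was at 0.0033, 0.0027 and 0.0029 in control and 0.0065, 0.0066 and 0.0078 in N40K neurons. Its groups were far apart, with a ratio of 2.35 and a log2 change of 0.39 ± 0.04 (limma adjusted p = 0.00332). Ranbp10, its close relative, rose 1.49-fold from 0.00677 ± 0.000404 to 0.0101 ± 0.00182 (0.0445), a call that ended without any library other than N40K replicate 3 (highest 0.13). Ranbp1 and Ranbp3, cofactors of export by Xpo1, had ratios of 1.06 and 0.934 and did not pass, but Ranbp3 passed as lower under all 3 scalings (adjusted p = 0.016, 0.0141 and 0.0355). Ranbp3l, at 0.0136, 0.0095 and 0.0114 against 0.0129, 0.0199 and 0.0256, and Ranbp17, a relative of Xpo7, did not pass (0.121 and 0.18). Ranbp3l passed without N40K replicate 1 (0.0258).

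Of the 25 rises, 9 held without each library in turn and 11 held under each of the 3 scalings. How many of the rises among all genes held in these ways was not counted. The 7 that did both were Ranbp9, Xpo4, Nup85, Nup88, Ranbp2, Nup210 and Nup210l. These 7 also kept their call in all 16 alternatives that tested every member or all but 1. Among these alternatives, no filter repeats the main fit, whose filter removed 0 genes. Some of the calls were near the threshold. Nup210 had a limma adjusted p of 0.04995 after centring on the library median, and Nup210l had 0.0495 with the replicate number as a block. Xpo4, Nup88, Ranbp9 and Nup210l overlap other genes and were not tested in the fit without such genes. Ranbp9 and Nup88 were also not tested without the lowest 25% of genes. Nup85, Ranbp2 and Nup210 were tested under both of these filters and kept their calls.

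**Figure D3:**
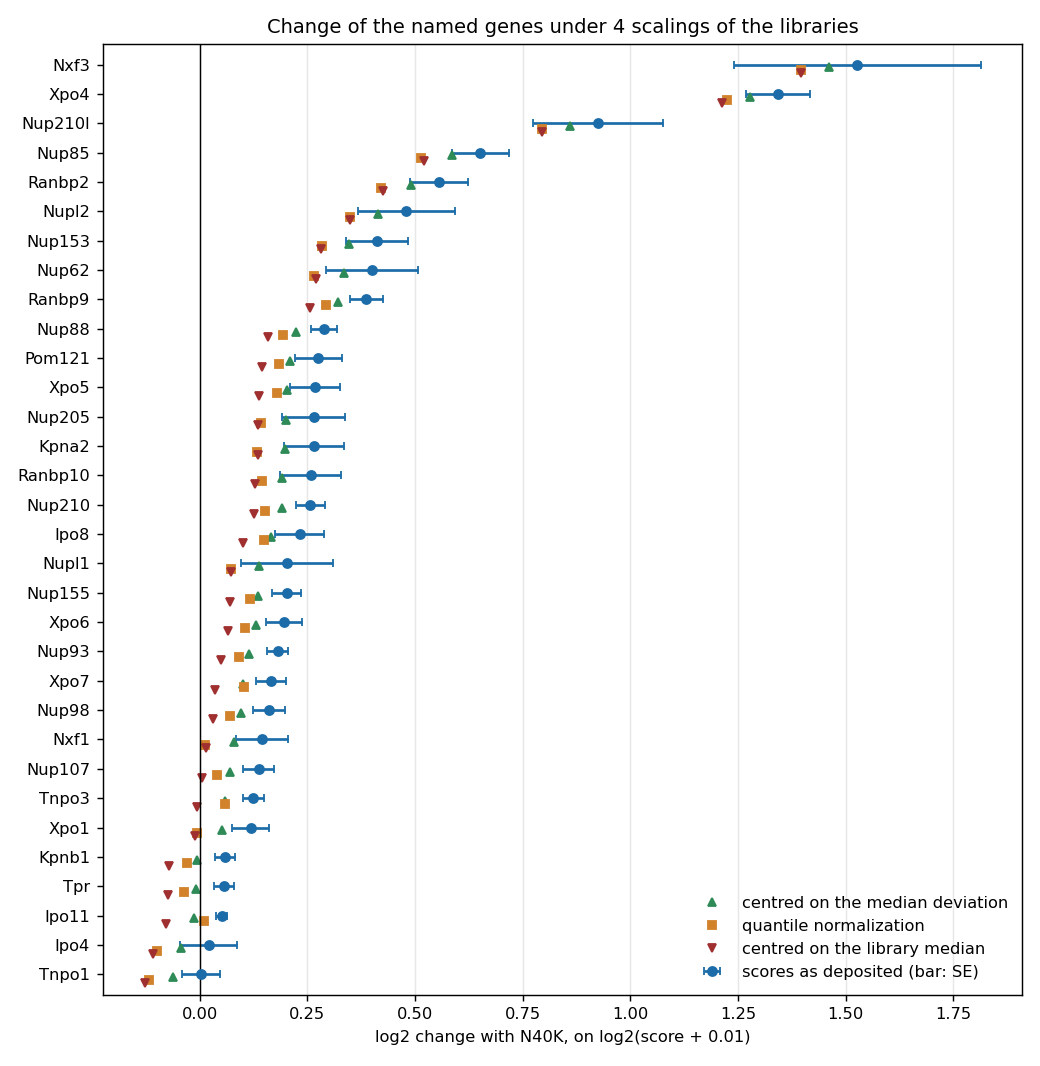
Log2 change with N40K on the log2(score + 0.01) scale for the 32 named genes, as deposited (circle, bar: SE) and under the 3 scalings of the libraries. Xpo4, Nup85 and Ranbp2 stay well above 0 under each, while Kpnb1, Tpr, Ipo4 and Tnpo1 cross 0.

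The members are long genes with many introns, which the choice by symbol did not use. Their median number of introns was 21, beside 8 for all genes with a known transcript, and their introns added up to a median of 37239 bases, beside 19908. Members that rose had a median of 22 introns and 53735 bases of intron, and members not called had 16 and 30035. Across the 60 members, the ratio of scores correlated with summed intron length at a Spearman rho of 0.41, with the number of introns at 0.29 and with the mean control score at -0.35. Over all genes the same values were 0.39, 0.23 and -0.32. Summed intron length itself correlated with the mean control score, at -0.52 in the members and -0.61 over all genes. The values for intron length and control score are thus not separate. These are descriptions across genes of the same libraries, and a long intron may hold more reads. The part of intron length in the members' ratios was not tested. Nxf3 stood out with a ratio of 3.93 and introns of only 10179 bases, and Ranbp17, with 296951 bases, had a ratio of 1.23. By annotation 34 of the 60 members, and 14 of the 25 that rose, overlap another gene, and 18 and 7 overlap a protein-coding gene.

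**Figure D4:**
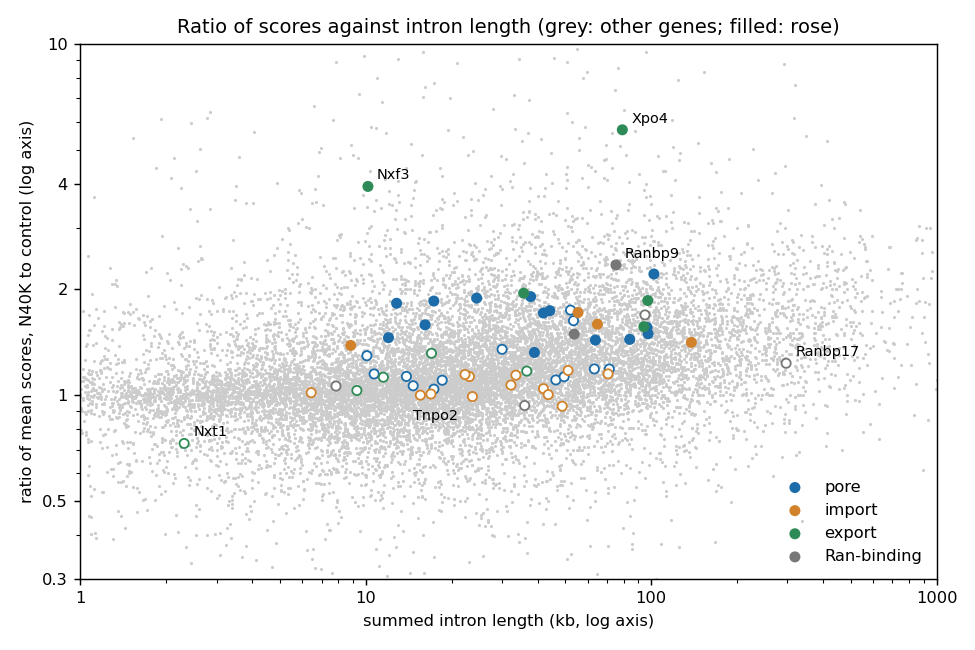
Ratio of mean scores, N40K to control, against summed intron length in kb (both log axes) for the 60 genes by role (filled: rose) over other genes in grey, some of which lie outside the axes. The rho is 0.41 over the members, and Nxf3 and Xpo4 lie above the rest.

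Genes of the same pathway that the symbols did not reach were taken from 4 lists with 44 scored genes, of which 9 rose (20.5%, beside 21.5% of all genes) and 3 fell (6.82%, beside 4.11%). Among 8 further pore and receptor genes 3 rose and 0 fell. In 5 of the 8 every N40K score was above every control score, beside 33.6% of all genes. Cse1l, the exportin that returns importin alpha, rose 1.80-fold (limma adjusted p = 0.00413). Snupn, the import adaptor of spliceosomal snRNPs, rose 1.76-fold (0.00365), and Ahctf1, which seeds pores on chromatin, rose 1.35-fold (0.019). Xpot, another exportin gene, had a ratio of 1.23 and did not pass (0.0564). Tmem48, the older name of Ndc1, had a ratio of 1.08 (limma adjusted p = 0.443). Of 7 genes of the Ran cycle and its cofactors 1 rose, the cap-binding protein gene Ncbp1 (1.68-fold), and 0 fell, while Ran, Rangap1 and Rcc1 had ratios of 1.09, 1.01 and 0.943 and did not pass. Of 17 genes of the mRNA export complex 2 rose, Thoc3 (1.58-fold) and Mcm3ap (1.60-fold), and 2 fell, the helicase gene Ddx19a (ratio 0.671) and Zc3h11a (0.647). Of 12 genes of the nuclear lamina and envelope 3 rose, Lmnb1 (1.48-fold), Syne1 (1.44-fold) and Lemd3 (1.29-fold), and Tmpo fell (ratio 0.785). The median ratio was 1.29 for the first list and 0.997, 1.00 and 1.08 for the others, beside 1.11 for all genes.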

How the data were processed

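The authors deposited 1 table with an Sd score, a linear ratio by its values, for each gene in 6 libraries. Per the submitters' processing notes, CASAVA, STAR, BWA, bedtools 2.16.1 and the build mm9 were used, with no role or order. For the formula, the annotation, the filters and strand in counting, nothing is given in the sources used here. Columns were matched to libraries by name, 0 were left unused and 0 pairs were identical.

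Each gene's log2(score + 0.01) was fitted by group with limma 3.58.1 (R 4.3.3), using eBayes with a trend. Tests were 2-sided, and p-values were adjusted by Benjamini-Hochberg across the 15705 genes. "Rose" and "fell" mean an adjusted p under 0.05. Genes needed a score above 0 in 3 or more libraries, which removed 0 genes. The pseudocount understates changes at low scores, and ratios of mean scores are therefore given too. The steps were tested on simulated data with 50 changed genes of each size. They recovered 14% of log2 changes of 0.25, 52% of 0.5, 86% of 1 and 92% of 2. There were 6 false calls among 15505 unchanged genes. These sizes are on the log2(score + 0.01) scale. The simulated noise was independent, with no shift between libraries. False calls from a shift such as the 0.13 between the groups were thus not tested. A gene that did not pass may still have changed, and not only by a small amount. Nup188, for example, did not pass at a ratio of 1.75.

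The members and lists were chosen with earlier results of these data known. Of the pathway lists, 1 further gene was taken out and is not reported here. Named genes were every member that rose, 11 genes fixed by name and the members with the highest and lowest control score in each role. Any other member given with values was picked after its values were seen. Gene structure came from GENCODE M21 (build GRCm38, not mm9); 58 members matched by Ensembl identifier and 2 by symbol. The alternatives were other pseudocounts, filters and scalings, each library left out, the replicate number as a block, eBayes without trend, and no overlapping genes; 2 fits without a pseudocount were added after seeing the data.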

Additional observations from a re-analysis of the deposited data

How the results depend on the processing

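Read depth is unknown, and 4 decimals limit scores near 0.001. Pseudocounts of 0.001 and 0.1 and the fit without a pseudocount kept the counts of rises among members, pore, import and export genes within 1.5 times, with 25, 24 and 23 members higher, while Ran-binding rises went from 2 to 1 at 0.1. No filter repeated the main fit with its 25 members, because the filter removed 0 genes. Counts below are members, then pore, import and export genes higher. Without the lowest 25% of genes they were 10, 7, 1 and 2 of 43, 21, 11 and 6 tested (2451 genes changed of 11773), and without genes that overlap another 8, 7, 0 and 1 of 26, 12, 5 and 6 (1182 of 6082). Fewer members were tested in both. Centring each library on its median gave 11, 7, 0 and 3, with 3 members lower, 2 of them import genes. Quantile normalization gave 15, 9, 0 and 5, with 2 lower, 1 of them an import gene. Centring on the median deviation gave 16, 10, 0 and 5, with 1 lower, and the same without a pseudocount 17, 10, 1 and 5, with 1 lower. eBayes without trend gave 19, 10, 2 and 6. The replicate block gave 11, 8, 0 and 2 (2098 genes changed). Same-numbered libraries did not deviate together (correlations of -0.07, 0.04 and -0.02), and libraries of different numbers had -0.04 to 0.06. With 3 libraries in each group, these values cannot tell whether libraries of the same number shared a culture or preparation. With 1 library left out the counts ran from 9 to 24, 7 to 14, 0 to 3 and 1 to 5, with 0 to 1 members lower, that one an export gene (0 to 1), 0 to 0 pore or import genes lower, and 1947 to 4215 of all genes changed. The cause of these moves, other than the smaller number tested, was not tested. Of all members, 21, 19 and 14 had another sign under the 3 scalings, where the median of all genes was -0.0708, -0.024 and -0.00587. Among the 32 named genes, these were Tnpo1 (0.00 as deposited): -0.127, -0.118 and -0.0625 under the 3 scalings, -0.144 with the last and no pseudocount, and -0.0214 to 0.0331 with 1 library left out. Ipo4 was at -0.109, -0.099, -0.0441 and, without a pseudocount, -0.128. The others were Ipo11 (-0.0787 and -0.0139), Kpnb1 (-0.0706, -0.03 and -0.0057), Tpr (-0.0726, -0.0369 and -0.0077), Tnpo3 (-0.0054) and Xpo1 (-0.0116 and -0.0061).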
